A study of Mus musculus with 15 samples.

Results

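The genes described here are 35 macrophage genes among the 51826 genes listed in each table of the series. The choice was made by symbol from what is known of tissue macrophages, with earlier results of these data also known. They fall into 9 roles: 2 genes of the CSF1 axis, 7 pan-macrophage genes, 5 lipid-associated genes, 4 scavenger receptors, 4 polarization and metabolic enzymes, 3 complement C1q subunits, 4 Fc and inhibitory receptors, 4 pattern recognition receptors and 2 resident macrophage genes. All 35 had a value above 0 in each of the 15 libraries. The study asked what overexpression of the histone reader TRIM24 in mammary epithelium does to the transcriptome of the tumors that arise.

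Macrophages live in the stroma of the mammary gland, around ducts and between adipocytes, where they clear dying cells and take part in the remodelling of the ductal tree. They depend on the receptor CSF1R and its ligands. In mammary tumors, monocytes recruited from the blood differentiate into tumor-associated macrophages, among which cells with lipid-handling genes such as Spp1, Gpnmb and Trem2 are often told apart from resident cells with Folr2 and Timd4. Several of the genes are not restricted to macrophages: Spp1 is also made by epithelial and bone cells, Apoe and Csf1 by stromal and epithelial cells, and Lyz2, Clec4d and Clec4e by neutrophils and monocytes.

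RNA-seq was performed on 15 libraries of 13 mice. The 6 Trim24COE tumors (COE tumors) came from mice with a single copy of a Flag-tagged Trim24 transgene behind a floxed stop, opened by MMTV-Cre, which acts mainly in mammary epithelium; 3 are labelled carcinosarcoma (mice 64, 567 and 897) and 3 carcinoma (mice 89, 273_5 and 3956). The 4 control glands (mice 133, 392, 417_3 and 517_3) are undiseased mammary glands of age-matched MMTV-Cre mice, so that controls and COE tumors share the Cre transgene. The 3 non-TRIM24 tumors (mice 219, FVB001 and FVB002) are carcinomas that arose spontaneously, and their genotype is labelled unknown. The strain is labelled FVB for each sample, whereas the series design names an FVB/129 background for the controls. For the non-TRIM24 tumors the study names either FVB or FVB/129 mice, without saying which tumor had which. The part of strain in the comparisons was not tested. No treatment is named. The transgene sits at one site, all tissues are whole pieces of gland or tumor, and a lower level in such bulk RNA cannot be told apart between fewer macrophages and less RNA per macrophage.

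Values are TPM, transcript abundances that scale for gene length and have the same sum in each library. Read depth and counting error cannot be taken from them. For genes differing between COE tumors and glands, the study's supplement lists what appear to be read counts per library, which were not used here. Between 21060 and 34209 genes had a value above 0. Trim24, the targeted gene, ranged from 10.6 to 24.1 TPM over COE tumors, from 14.5 to 22.4 TPM over glands and from 5.34 to 10.04 TPM over non-TRIM24 tumors, so that its total RNA does not separate COE tumors from control glands. Batch 2 consists of the 3 non-TRIM24 tumors and of repeat libraries from gland 133 and tumor 3956, and the paired libraries differed by at most 0.65 in log2(TPM + 1) over the members (Fcgr1 in gland 133). Below 1 TPM the TPM themselves differed more, as for Timd4 with 0.22 and 0.02 TPM in tumor 3956 and its repeat. The control glands were not alike. The summed TPM of 8 adipocyte genes ranged from 1763 to 38050 among them, with glands 133 and 392 fat-rich. Glands 417_3 and 517_3 were as close as repeats of 1 mouse, with 4.08% of genes more than 2-fold apart against 12.3% and 4.83% for the repeats of mice 133 and 3956. The comparison of COE tumors with control glands was therefore also fitted with these glands averaged. The comparison of non-TRIM24 tumors with control glands was not.

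The summed TPM of the 35 genes was higher in each tumor than in each gland. It made up 0.378% to 0.690% of the total in the control glands, 0.952% to 1.82% in the COE tumors and 1.08% to 1.34% in the non-TRIM24 tumors. A few abundant genes carry this sum, and Apoe alone made up 67.9% to 72.6% of it in the glands, 22.7% to 43.2% in the COE tumors and 31.4% to 76.9% in the non-TRIM24 tumors. Without Apoe and Spp1, which other cells also make, the 33 other genes took 0.112% to 0.205%, 0.373% to 0.981% and 0.257% to 0.320% of the total. In the heatmap of all members, the rise was uneven: the Fc receptors, C1q subunits, Spp1, Trem2, Msr1 and Npl stood above the glands in each COE tumor, while Mertk, Gpnmb, Apoe, Cd163 and Cd14 did not.

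**Figure D1:**
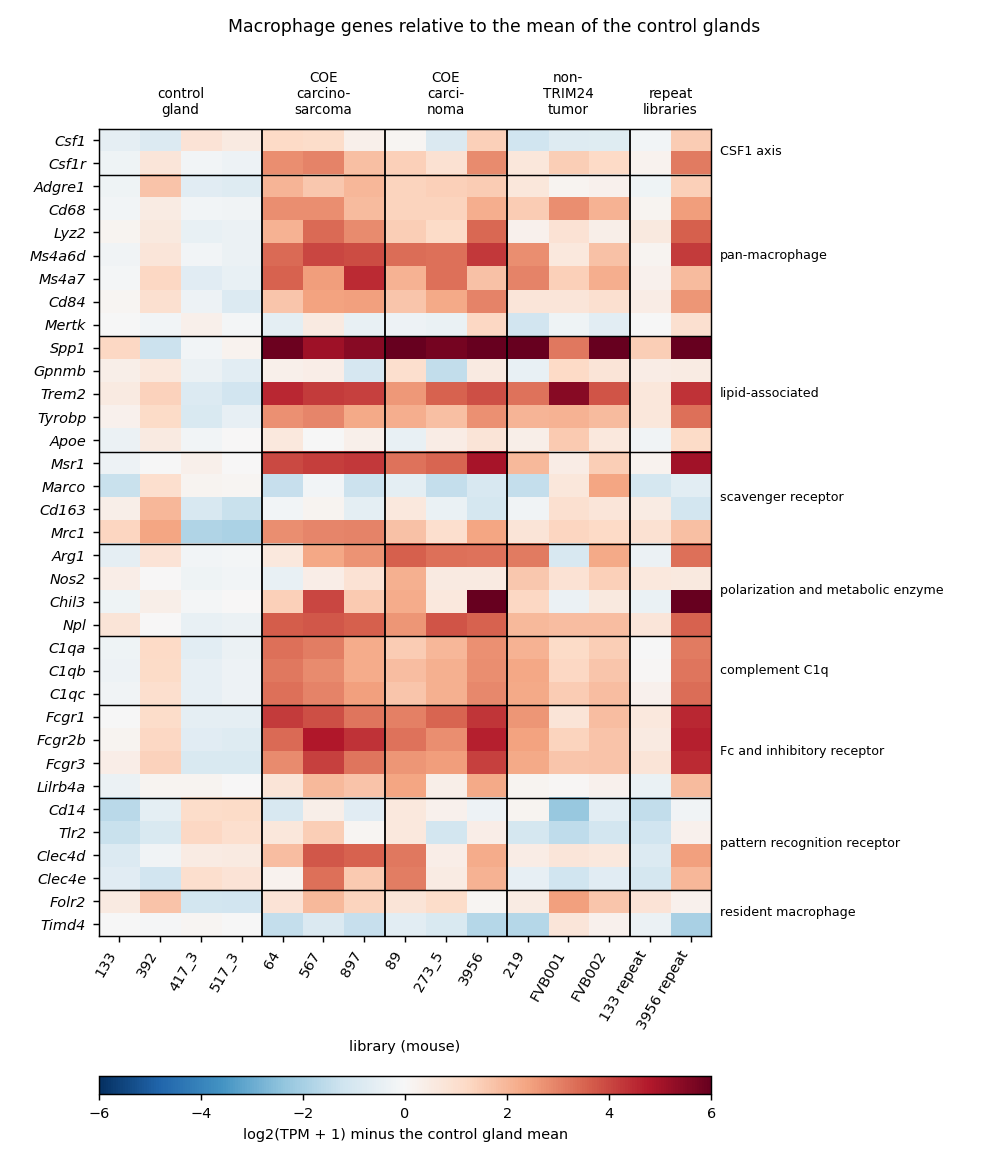
Level of the 35 macrophage genes in each library as log2(TPM + 1) minus the mean of the 4 control glands, with genes in rows by role and libraries in columns by group; the 2 repeat libraries stand at the right, and the color scale ends at a difference of 6 in either direction. Spp1 is among the darkest rows in the COE tumors, and Timd4 lies below the glands in all 6 of them.

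Comparing the 6 COE tumors with the 4 control glands asks how the macrophage genes differ between TRIM24-driven tumors and undiseased tissue. In limma on log2(TPM + 1), fitted over 15196 genes calling genes at a Benjamini-Hochberg adjusted p under 0.05, 21 of the 35 members were higher in the tumors, against 7.96% of all genes tested. Of the members, 1 (Timd4) was lower, against 9.13% of all genes tested. The members were chosen with earlier results of these data known, so that these shares do not test macrophage genes as a set. The median log2 fold change of the members was 2.31, and that of all genes was -0.04. The 21 higher members had log2 fold changes from 1.57 (Lilrb4a) to 5.76 (Spp1). In 19 members the lowest COE tumor exceeded the highest gland, against 7.39% of all genes tested, and in 1 member the highest tumor lay under the lowest gland, against 7.2%. With glands 417_3 and 517_3 averaged, 21 members passed the threshold, 20 of them higher. For the 19 members given below library by library, an exact two-sided permutation test of the 6 tumors against the 4 glands was also run. Most of these members were picked by their limma p in this same comparison, so that the permutation p-values are no separate support. The smallest p this design allows is 0.00952, which is reached where the groups do not overlap.

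Leukocyte genes outside the 35 rose in the same tumors. Of 13 pan-leukocyte and myeloid genes, 11 were higher in COE tumors than in control glands and none lower, against 7.96% and 9.13% of all genes tested. The summed level of the 13 genes was 501 to 1215 TPM in the tumors and 160.2 to 438 TPM in the glands. When the mean of 8 of these leukocyte genes was entered as a covariate, 3 of the 35 members remained past the threshold, Ms4a6d, Spp1 and Msr1, and 0.559% of all genes did. Among the members that lost the threshold, the log2 fold change of Npl remained 3.37 (limma adjusted p = 0.0531), that of Ms4a7 2.86 (adjusted p = 0.249) and that of Arg1 2.40 (adjusted p = 0.313), whereas those of Csf1r and Adgre1 were 0.06 and 0.07. The covariate itself differs between the groups, so that leukocyte content and tumor state cannot be told apart in this fit.

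The CSF1 axis comprises the growth factor Csf1 and its receptor Csf1r, which macrophages need for survival. Csf1r had 16.5, 33.1, 17.6 and 15.5 TPM in glands 133, 392, 417_3 and 517_3, 141.5, 159.5 and 70.7 TPM in carcinosarcomas 64, 567 and 897, and 55.1, 38.3 and 149 TPM in carcinomas 89, 273_5 and 3956. Each COE tumor exceeded each gland, and the log2 fold change was 2.13 (standard error 0.43, limma adjusted p = 0.00805; exact permutation p = 0.00952). With the adipocyte covariate Csf1r missed the threshold (log2 fold change 2.07, limma adjusted p = 0.058). With 31.8, 57.5 and 46.3 TPM, the non-TRIM24 tumors overlapped with both the glands and the COE tumors. Csf1 had 21.2, 17.8, 56.8 and 46.3 TPM in the glands and 74.3, 69.5, 39.1, 34.6, 17.1 and 87.5 TPM in the COE tumors in the same order, and these ranges overlapped (log2 fold change 0.55, standard error 0.48, limma adjusted p = 0.457). In the non-TRIM24 tumors Csf1 was at 13.3, 18.3 and 18.8 TPM, near the lower end of the COE tumors.

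Of the 7 pan-macrophage genes, 6 were higher in COE tumors than in control glands. Ms4a6d, a membrane protein of the MS4A family, had 4.68, 10.03, 4.82 and 4.21 TPM in the glands, 67.6, 105 and 98.8 TPM in the carcinosarcomas and 66.5, 63.7 and 125 TPM in the carcinomas. The tumors did not overlap with the glands (log2 fold change 3.70, standard error 0.29, limma adjusted p = 0.000100). Cd68, a lysosomal membrane protein of phagocytes, had 19.6, 31.8, 19.7 and 19.0 TPM in the glands and 158, 157, 83.9, 56.5, 56.6 and 104.5 TPM in the COE tumors, in the order given above (log2 fold change 2.05, standard error 0.34, limma adjusted p = 0.00304). Lyz2, which encodes lysozyme, had 503, 675, 326 and 349.8 TPM in the glands and 1859, 4645, 3222, 1225, 988 and 4852 TPM in the same tumors (log2 fold change 2.40, standard error 0.48, limma adjusted p = 0.0078). Ms4a6d was at 45.1, 9.33 and 21.2 TPM in the non-TRIM24 tumors, below each COE tumor. For Cd68 the 3 non-TRIM24 tumors had 64.2, 159 and 97.7 TPM and overlapped with the COE tumors. Tumor FVB001 was just above the highest COE tumor, at 159.33 against 158.45 TPM. For Lyz2 the non-TRIM24 tumors had 525, 803 and 573 TPM and lay below each COE tumor. Ms4a7, Cd84 and Adgre1 (F4/80) also rose, by 2.94, 2.24 and 1.66 on the log2 scale. Adgre1 was at 26.5 TPM in gland 392 and at most 5.82 TPM in the other 3 glands, against 20.1 to 33.2 TPM in the COE tumors. It lost the threshold without gland 133, 417_3 or 517_3 and without tumor 64 or 897. It also lost it with glands 417_3 and 517_3 averaged and without the filter on low values. Mertk, a receptor for apoptotic cells, had a log2 fold change of 0.02 (limma adjusted p = 0.982).

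The lipid-associated genes split. Spp1 (osteopontin, a secreted phosphoprotein; chromosome 5, 104435118 to 104441050, GRCm38, GENCODE M21) had 94.9, 15.6, 34.5 and 45.3 TPM in the glands. It had 2349, 1370.1 and 1775 TPM in the carcinosarcomas, and 3129.6, 2170.5 and 2708 TPM in the carcinomas. The non-TRIM24 tumors had 5980.0, 357 and 3011 TPM. Each of the 9 tumors exceeded each gland, tumor FVB001 was the lowest of them and tumor 219 the highest. The log2 fold change of Spp1 was 5.76 between COE tumors and glands (standard error 0.42, limma adjusted p = 0.000100) and 5.32 between non-TRIM24 tumors and glands (standard error 0.79, limma adjusted p = 0.01).

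Trem2, a lipid-sensing receptor (chromosome 17, 48346401 to 48354147), had 4.53, 8.90, 1.16 and 0.70 TPM in the glands. The COE tumors had 84.5, 68.3 and 64.0 TPM among carcinosarcomas and 21.8, 43.0 and 53.6 TPM among carcinomas, and the non-TRIM24 tumors had 35.1, 163 and 49.9 TPM. Tumor FVB001, the lowest in Spp1 among tumors, was the highest in Trem2. The log2 fold change was 3.80 for COE tumors (standard error 0.52, limma adjusted p = 0.00118) and 3.85 for non-TRIM24 tumors (standard error 0.66, limma adjusted p = 0.0157) against the same glands. Tyrobp, the signalling adaptor of TREM2 and related receptors, rose by 2.43 in COE tumors. Gpnmb, a lysosomal glycoprotein, and Apoe, a lipid carrier, did not pass the threshold, with log2 fold changes of -0.04 and 0.28. Gpnmb was low throughout, at 1.00 to 10.2 TPM in the COE tumors and 2.55 to 7.67 TPM in the glands, while Apoe was abundant in both, at 2451 to 5638 TPM and 2566 to 4834 TPM.

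**Figure D2:**
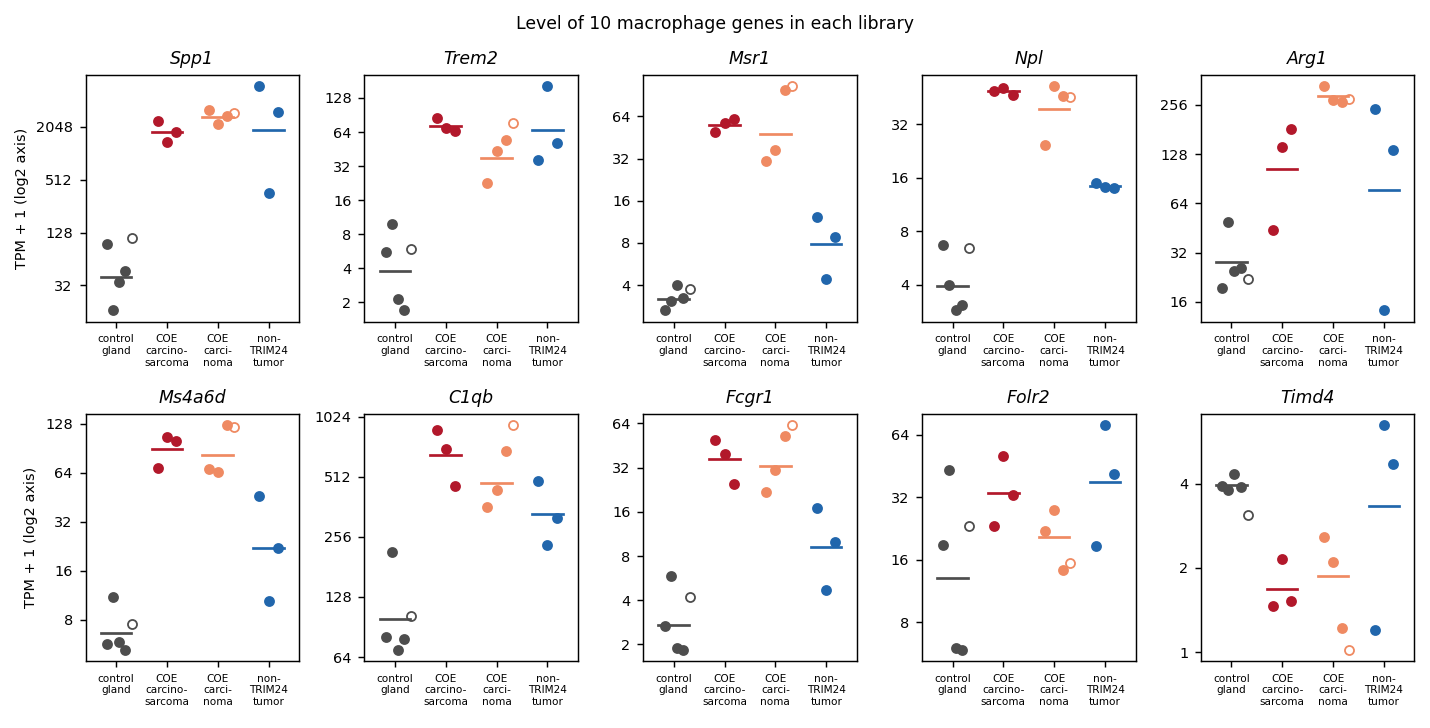
TPM + 1 on a log2 axis for 10 of the genes, by group; each filled point is the first library of 1 mouse, open points are the repeat libraries of gland 133 and tumor 3956, and the line is the mean on the log scale. Msr1 and Npl separate the 6 COE tumors from the 3 non-TRIM24 tumors, which for Npl had 13.02 to 14 TPM, whereas Spp1 and Trem2 do not. COE tumors lay above non-TRIM24 tumors without overlap in 3318 of 16775 genes tested.

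Promoter sequences are shown as examples for 4 of the genes that rose together, Spp1, Trem2, C1qb and C1qc. Each holds a match to at least 1 of 3 motifs of factors known in myeloid cells. Cd68, Ms4a7 and Cd84 also rose and hold a match, but their sequences are not shown. RefSeq promoters on GRCm38.p6, from 250 bases before to 50 after a transcript start, were matched by symbol for 25 of the 35 members; Csf1r, Adgre1, Ms4a6d, Tyrobp, Msr1, Arg1, Nos2, C1qa, Lilrb4a and Cd14 had no entry. A PU.1-type ETS site (GAGGAAGT) was found on either strand in 2 of the 25 member genes, Spp1 and C1qc, and in 3.2% of all 32851 promoters. An AP-1 site (TGANTCA) was found in 6 member genes, Cd68, Ms4a7, Cd84, Gpnmb, Trem2 and Folr2, and in 7.81% of all promoters. The M-box bound by MITF and TFE factors (TCACGTG or TCATGTG) was found in 3 member genes, Ms4a7, C1qb and C1qc, and in 7.4% of all promoters. A member gene was counted if any of its promoters held the match, and the 25 genes had 31 promoters. The share of all is per promoter, so that the units differ and the counts are not a test. In the sequences below, written from 5′ to 3′ on the gene's strand, capitals mark these matches, which are letters in a window and not sites of measured binding. The Spp1 match begins 113 bases before the start and the Trem2 match 9 bases before it. The C1qb M-box begins 231 bases before the start, and in C1qc the ETS and M-box matches, both on the opposite strand, begin 195 and 178 bases before it.
Spp1 promoter, chr5:104434861-104435160 (+ strand): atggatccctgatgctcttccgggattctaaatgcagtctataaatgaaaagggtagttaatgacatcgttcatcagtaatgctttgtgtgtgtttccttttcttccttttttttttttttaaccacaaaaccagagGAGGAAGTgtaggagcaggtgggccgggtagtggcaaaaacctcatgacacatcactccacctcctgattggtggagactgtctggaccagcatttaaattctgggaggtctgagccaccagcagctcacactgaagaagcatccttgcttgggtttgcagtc
Trem2 promoter, chr17:48346151-48346450 (+ strand): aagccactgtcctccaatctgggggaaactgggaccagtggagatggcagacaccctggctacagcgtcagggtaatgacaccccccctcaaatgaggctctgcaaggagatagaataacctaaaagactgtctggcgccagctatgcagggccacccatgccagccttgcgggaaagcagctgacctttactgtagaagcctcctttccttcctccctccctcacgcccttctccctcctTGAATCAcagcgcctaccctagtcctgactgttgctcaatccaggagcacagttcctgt
C1qb promoter, chr4:136886151-136886450 (- strand): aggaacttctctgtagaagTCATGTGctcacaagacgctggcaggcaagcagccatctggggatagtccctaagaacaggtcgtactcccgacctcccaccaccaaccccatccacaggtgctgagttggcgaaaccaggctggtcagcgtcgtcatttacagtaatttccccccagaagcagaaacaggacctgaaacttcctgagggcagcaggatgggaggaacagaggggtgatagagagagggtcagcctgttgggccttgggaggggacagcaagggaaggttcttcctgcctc
C1qc promoter, chr4:136892865-136893164 (- strand): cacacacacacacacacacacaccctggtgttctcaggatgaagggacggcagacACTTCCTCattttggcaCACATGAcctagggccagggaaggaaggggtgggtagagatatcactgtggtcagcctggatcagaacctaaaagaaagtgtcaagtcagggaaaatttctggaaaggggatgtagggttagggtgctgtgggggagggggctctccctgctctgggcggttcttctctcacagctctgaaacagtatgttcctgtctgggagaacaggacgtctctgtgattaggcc

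The 3 subunits of complement C1q, the initiator of the classical pathway and in most tissues a product of macrophages, rose together. C1qa, C1qb and C1qc lie next to each other on chromosome 4, within 136880129 to 136898803. C1qb had 79.9, 215, 68.7 and 77.9 TPM in the glands, 878, 704 and 459.8 TPM in the carcinosarcomas, 358, 439 and 685 TPM in the carcinomas and 489, 233 and 316 TPM in the non-TRIM24 tumors. C1qc had 66.1, 155, 52.6 and 60.1 TPM in the glands, 756, 610.3 and 419.7 TPM in the carcinosarcomas and 240.4, 334 and 565 TPM in the carcinomas. The non-TRIM24 tumors had 374, 222 and 271 TPM of C1qc. For both genes gland 392 was the highest gland and still lay below the lowest COE tumor. The log2 fold changes of C1qa, C1qb and C1qc in COE tumors against glands were 2.47, 2.50 and 2.57 (limma adjusted p = 0.00373, 0.00148 and 0.00162). Against the same glands the non-TRIM24 tumors differed by 1.27 to 1.43 on the log2 scale and no subunit passed the threshold (limma adjusted p = 0.174, 0.132 and 0.111).

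The scavenger receptors moved apart from each other. Msr1 (class A scavenger receptor, which takes up modified lipoproteins; chromosome 8, 39581685 to 39642673) had 1.64, 2.11, 3.02 and 2.22 TPM in the glands. It had 48.8, 55.9 and 59.9 TPM in the carcinosarcomas and 29.7, 35.6 and 97.7 TPM in the carcinomas. The non-TRIM24 tumors had 11.3, 3.41 and 7.84 TPM, so that each of them lay above the glands and below each COE tumor. The log2 fold change between COE tumors and glands was 4.01 (standard error 0.32, limma adjusted p = 0.000100). Mrc1, the mannose receptor CD206, depended on the gland: it had 22.5 and 48.0 TPM in the fat-rich glands 133 and 392 and 1.76 and 1.57 TPM in glands 417_3 and 517_3. The COE tumors had 64.6, 72.1, 73.6, 31.0, 18.3 and 48.2 TPM, overlapping with the first pair of glands (log2 fold change 2.31, standard error 0.81, limma adjusted p = 0.0718; exact permutation p = 0.0571). Mrc1 was at 15.4, 22.2 and 20.6 TPM in the non-TRIM24 tumors. Cd163 and Marco, receptors of resident macrophages in several tissues, were low and did not pass the threshold, with at most 4.81 and 1.41 TPM in the COE tumors.

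Among the polarization and metabolic enzymes, Arg1 and Npl were higher in COE tumors. Npl (N-acetylneuraminate pyruvate lyase, which degrades sialic acid; chromosome 1, 153503015 to 153550045) had 5.66, 2.99, 1.86 and 2.07 TPM in the glands, 48.2, 50.2 and 45.9 TPM in the carcinosarcomas and 23.4, 51.7 and 44.9 TPM in the carcinomas. The non-TRIM24 tumors had 14, 13.1 and 13.02 TPM, again between glands and COE tumors without overlap. Npl rose by 3.48 in COE tumors against glands (standard error 0.31, limma adjusted p = 0.000178). Arg1, the arginase of the urea cycle that marks alternatively activated macrophages, had 18.4, 48.1, 23.7 and 24.9 TPM in the glands, 42.9, 140.1 and 181 TPM in the carcinosarcomas and 334, 274 and 265 TPM in the carcinomas. Tumor 64 lay below gland 392, and the log2 fold change was 2.64 (standard error 0.52, limma adjusted p = 0.00713; exact permutation p = 0.019). The non-TRIM24 tumors were spread, with 239, 13.2 and 135 TPM in 219, FVB001 and FVB002. Nos2, the inducible nitric oxide synthase, stayed at or under 10.5 TPM in all libraries. Chil3, a chitinase-like protein also made by myeloid precursors, had 405 TPM in tumor 3956 and 397 TPM in its repeat library, 26.9 TPM in tumor 567 and 1.73 to 7 TPM in the other 4 COE tumors, the widest spread of any member (149-fold on TPM + 1), and it missed the threshold (limma adjusted p = 0.102).

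All 4 Fc and inhibitory receptors were higher in COE tumors. Fcgr1, the high-affinity IgG receptor, had 1.67, 4.84, 0.89 and 0.84 TPM in the glands, 48.5, 38.8 and 23.9 TPM in the carcinosarcomas, 20.9, 29.9 and 51.5 TPM in the carcinomas and 16.1, 3.67 and 8.93 TPM in the non-TRIM24 tumors. Fcgr2b, the inhibitory IgG receptor, had 12.5, 27.4, 6.45 and 5.93 TPM in the glands, 123, 334 and 236 TPM in the carcinosarcomas and 114, 80.4 and 299 TPM in the carcinomas. Its level in the non-TRIM24 tumors was 62.6, 28.8 and 37.2 TPM. For both genes no COE tumor overlapped with a gland or a non-TRIM24 tumor. Each COE tumor exceeded each non-TRIM24 tumor in 11 of the 35 members, and in 3318 of 16775 genes tested. The log2 fold changes against glands were 3.68 (standard error 0.39, limma adjusted p = 0.000343) and 3.87 (standard error 0.50, limma adjusted p = 0.000932). Fcgr3 and Lilrb4a rose by 3.23 and 1.57. The Fc receptors have similar extracellular domains, and Lilrb4a has a close neighbour in sequence, so that assignment of shared reads is uncertain for them. Lilrb4a lost the threshold without gland 133 or 517_3.

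The pattern recognition receptors gave a mixed picture. Clec4d, a receptor for microbial glycolipids, had 1.14, 2.24, 4.38 and 4.47 TPM in the glands and 12.7, 48.6, 43.4, 32.6, 4.02 and 16.5 TPM in the COE tumors, where tumor 273_5 overlapped with the glands (log2 fold change 2.48, standard error 0.61, limma adjusted p = 0.0191; exact permutation p = 0.0286). It lost the threshold without gland 133. Its neighbour Clec4e (Mincle) had 0.84, 0.32, 5 and 4.21 TPM in the glands and 2.42, 28.6, 7.64, 23.98, 3.13 and 11.4 TPM in the same tumors, with overlap (log2 fold change 1.79, standard error 0.69, limma adjusted p = 0.0965). In the non-TRIM24 tumors Clec4d was at 4.14, 5.21 and 4.81 TPM and Clec4e at 1.09, 0.27 and 0.84 TPM. Cd14 and Tlr2, receptors for bacterial lipids, differed by -0.12 and 0.37 and did not pass the threshold. In glands 417_3 and 517_3 both were higher than in glands 133 and 392, at 347 and 362 against 51.9 and 108 TPM for Cd14. Neutrophils also carry Clec4d and Clec4e, and 4 of 4 neutrophil genes tested were higher in COE tumors, against 7.96% of all genes. The summed level over the 6 genes listed was 81.1 to 1995 TPM in the COE tumors against 5.67 to 10.99 TPM in the glands. The part of neutrophils in these results was not tested.

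Neither resident macrophage gene passed the threshold as higher. Timd4, a phosphatidylserine receptor of long-lived resident macrophages, had 2.91, 2.79, 3.32 and 2.88 TPM in the glands and 0.46, 1.16, 0.52, 1.59, 1.10 and 0.22 TPM in the COE tumors. It was lower in each tumor than in each gland, by 1.16 on the log2 scale (standard error 0.25, limma adjusted p = 0.0115), and at these levels the added 1 TPM understates the change. It lost the threshold when the filter on low values was dropped and when a leukocyte or adipocyte covariate was added. Among non-TRIM24 tumors Timd4 was at 0.20 TPM in 219 and at 5.48 and 3.69 TPM in FVB001 and FVB002. Folr2, a folate receptor of perivascular and stromal macrophages, had 17.9, 42.2, 4.99 and 4.90 TPM in the glands and 22.2, 49.5, 31.9, 21.1, 26.7 and 13.3 TPM in the COE tumors, which overlapped (log2 fold change 1.02, standard error 0.56, limma adjusted p = 0.231). The non-TRIM24 tumors had 17.6, 70.4 and 40.6 TPM of Folr2, and tumor FVB001 was the highest of all 15 libraries. Of 11 further genes of resident macrophages, 1 was higher and 2 were lower in COE tumors, against 7.96% and 9.13% of all genes tested. Vsig4, a complement receptor, rose by 1.46, while Cbr2 and Gas6 fell by 1.88 and 2.39.

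Comparing the non-TRIM24 tumors with the control glands asks which of these differences also appear in mammary tumors without the transgene. Spp1, Trem2, Npl and Cd68 were higher in the non-TRIM24 tumors, and no member was lower. These comparisons used all 15 libraries with a term for sequencing batch and mouse as a block in limma. Only mice 133 and 3956 tie the batches to each other, and the correlation between libraries of 1 mouse was estimated at 0.951. Of 35 members, 4 were higher, against 0.203% of 16775 genes tested, and 0 were lower, against 0.507%. In 12 members each non-TRIM24 tumor exceeded each gland, against 1278 of 16775 genes tested. In 1 member each of these tumors lay below each gland, against 4015 genes. At an unadjusted p under 0.05, 14 members (40.0%) were higher and 0 lower, where 19.3% of all genes passed in either direction. Cd68 and Npl had log2 fold changes of 1.81 (standard error 0.36, limma adjusted p = 0.0407) and 1.88 (standard error 0.33, limma adjusted p = 0.02). The median difference of the members was 0.94, and that of all genes was -0.27. Under quantile normalization the latter became -0.02, with 4 members and 0.793% of all genes past the threshold. The count moved with single mice, and so did the share of all genes passing, given in parentheses. It was 7 without gland 392 (0.914%), 1 without gland 417_3 or 517_3 (0.345% and 0.295%) and 0 without tumor FVB002 (0.0393%). It was also 0 without the filter on low values (0.12%), 0 with libraries treated as independent (0.107%) and 12 without a batch term (14.1%).

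Comparing COE tumors with non-TRIM24 tumors asks which macrophage genes differ between tumors with and without the transgene. The non-TRIM24 tumors were uneven in fat. The summed TPM of the 8 adipocyte genes was 179, 54243 and 27602 in tumors 219, FVB001 and FVB002, against 121.3 to 1276 in the COE tumors. The adipocyte covariate was not entered in either comparison with non-TRIM24 tumors, so that the part of fat in them was not tested. Msr1, Npl, Lyz2, Ms4a6d, Fcgr1 and Fcgr2b were higher in the COE tumors. In the same fit as above, 6 of 35 members passed the threshold as higher, against 1.7% of all genes tested, and 0 as lower, against 0.566%. In 11 members each COE tumor exceeded each non-TRIM24 tumor, against 3318 of 16775 genes tested. The reverse held for 0 members, against 644 genes. These counts compare first libraries across the batches without a batch term. At an unadjusted p under 0.05, 19 members were higher and 1, Timd4, was lower (57.1% in all), where 24.3% of all genes passed in either direction. Msr1 had the largest fitted difference of the 6, 3.04 on the log2 scale (standard error 0.43, limma adjusted p = 0.0159). Fcgr1, Fcgr2b, Lyz2 and Ms4a6d differed by 2.36, 2.25, 2.21 and 2.14 (limma adjusted p = 0.039, 0.0489, 0.0404 and 0.0392), and Npl by 1.60 (standard error 0.31, limma adjusted p = 0.0308).

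Other members did not pass the threshold. Spp1 differed by 0.42 between COE and non-TRIM24 tumors, with a 95% interval from -1.17 to 2.00. Trem2 differed by -0.01, with an interval from -1.33 to 1.31, and Cd68 by 0.25, with an interval from -0.48 to 0.98. For the 3 C1q subunits the intervals lay above 0, the widest from 0.29 to 2.15 for C1qa, but no adjusted p was under 0.0977. The median difference of the members was 1.18 and that of all genes 0.21. Under quantile normalization the latter was 0.08 and 1 member, Msr1, remained past the threshold, with 1.69% of all genes. The pan-leukocyte genes were also higher in COE tumors, 4 of 13 past the threshold. With the leukocyte covariate described above in the fit, no member passed. Almost no gene passed in that fit (0.00596% of all genes), so that this result is not specific to the members. In addition, the count of members past the threshold was 9 without tumor 273_5 (4.05% of all genes passed) and 3 without tumor 897 (1.45%). It was 2 without gland 133, gland 517_3 or tumor 89 (2.23%, 0.808% and 0.66%). It was 1 without tumor 64, 567 or FVB001 (0.235%, 0.258% and 0.404%) and 0 without FVB002 (0.0169%). Without tumor 219 Timd4 was past the threshold as lower. Since both comparisons share the non-TRIM24 tumors and one fit, and both gland comparisons share the glands, the lists of genes are not independent of each other.

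**Figure D3:**
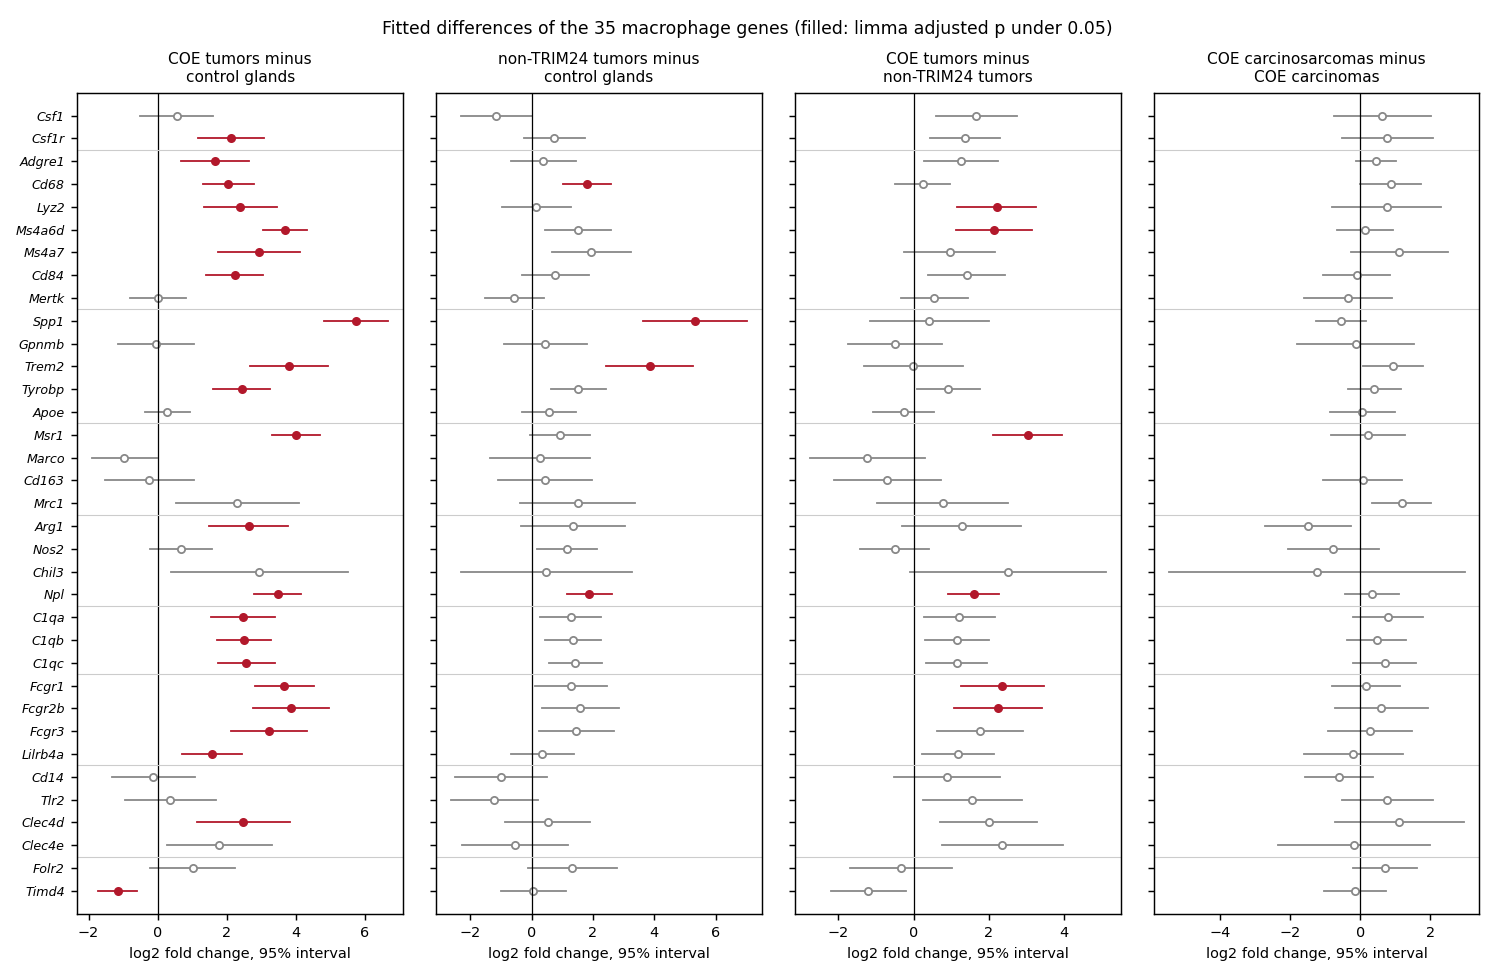
Fitted log2 fold change of each of the 35 genes with its 95% interval in the 4 comparisons, with genes in rows by role; filled red points have a limma adjusted p under 0.05 and open gray points do not. In the panel of COE tumors against control glands 21 points lie to the right of 0 in red and Timd4 lies to the left, while the panel of carcinosarcomas against carcinomas holds no red point.

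Comparing the 3 COE carcinosarcomas with the 3 COE carcinomas asks whether the macrophage genes follow the tumor class given in the labels. In limma over 14193 genes no member passed the threshold in either direction, against 0.113% of all genes higher and 0.585% lower in carcinosarcomas, and 1 member, Marco, was too low to be tested. The median difference was 0.30 for the members and -0.10 for all genes, and the latter was 0.03 under quantile normalization. At an unadjusted p under 0.05, 3 of the 34 members tested (8.82%) passed, Mrc1, Trem2 and Arg1, which is a smaller share than the 15% of all genes, so that the values of these 3 genes are given as a description. Mrc1 lay higher in each carcinosarcoma (64.6 to 73.6 TPM) than in each carcinoma (18.3 to 48.2 TPM), with a difference of 1.19 on the log2 scale and a 95% interval from 0.34 to 2.03 (limma adjusted p = 0.221). Arg1 was lower in each carcinosarcoma (42.9 to 181 TPM) than in each carcinoma (265 to 334 TPM), by 1.48 (interval from -2.71 to -0.25, limma adjusted p = 0.27). Trem2 differed by 0.94 (interval from 0.09 to 1.79, limma adjusted p = 0.298). Without overlap of the classes, 3 members were higher and 1 lower in carcinosarcomas, against 1040 and 2048 of 14193 genes tested. The differences of Spp1 and Msr1 were -0.56 (interval from -1.28 to 0.15) and 0.21 (interval from -0.84 to 1.27). With 3 tumors against 3 an exact permutation test cannot go below 0.1, and the study's pathologists differ on tumors 89, 567 and 3956.

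Ratios between 2 genes within a library are given without a test. On TPM + 1 they cancel a factor common to both genes only where both lie well above 1 TPM. Trem2, Msr1, Mrc1 and Nos2 were near 1 TPM in some glands, where the added 1 TPM draws the log2 ratio towards 0. Spp1 is not restricted to macrophages, so that its ratio to C1qb need not describe macrophages alone. The log2 ratio of Trem2 to Folr2 on TPM + 1 was -1.77, -2.12, -1.47 and -1.80 in the glands, whereas it lay between 0.05 and 1.93 in the COE tumors and between 0.29 and 1.20 in the non-TRIM24 tumors. It was thus below 0 in each gland, fat-rich or not, and above 0 in each tumor. The ratio of Spp1 to C1qb ranged from -3.70 to 0.25 in the glands, from 0.96 to 3.12 in the COE tumors and from 0.61 to 3.61 in the non-TRIM24 tumors. The ratio of Msr1 to Mrc1 was -3.15 and -3.98 in glands 133 and 392 but 0.54 and 0.33 in glands 417_3 and 517_3, so that the glands overlapped with the COE tumors (-0.40 to 1.00). The ratio of Arg1 to Nos2 was positive in all libraries, 2.49 to 4.18 in the glands, 4.48 to 6.18 in the COE tumors and 1.55 to 4.89 in the non-TRIM24 tumors.

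**Figure D4:**
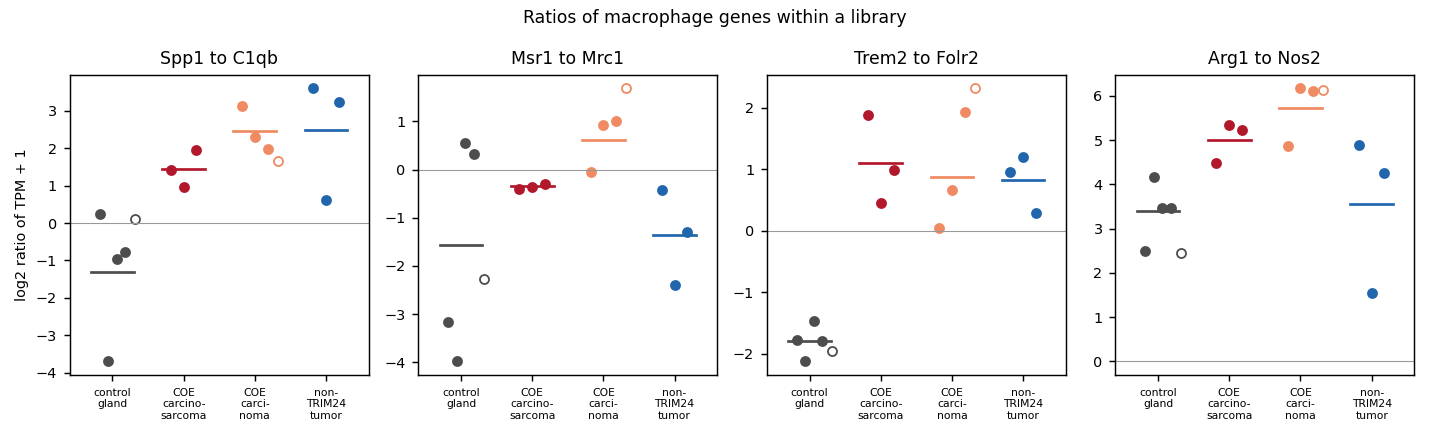
Log2 ratio of 4 pairs of macrophage genes within each library on TPM + 1, by group; filled points are first libraries, open points repeat libraries and lines group means. The Trem2 to Folr2 ratio is below 0 in the 4 glands and above 0 in the 9 tumors.

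Genes of monocyte recruitment and of macrophage function outside the 35 were examined in the same fits. Of all genes tested, 7.96% were higher and 9.13% lower in COE tumors than in glands. Of 13 genes for monocyte recruitment and colony-stimulating factors, 4 were higher and 0 lower in COE tumors than in glands. Among them the chemokine receptor Ccr1 rose by 3.62 and the chemokine Ccl12 by 3.39, while Ccl2, the main monocyte attractant, had a log2 fold change of 0.69 (limma adjusted p = 0.638). Of 15 genes of lipid handling and lysosome, 5 were higher and 2 lower. Lgals3 (galectin-3) rose by 2.26, Ctsd and Cd63 by 1.11 and 1.53, and the fatty acid transporter Cd36, also an adipocyte gene, fell by 5.23. Of 10 genes of osteoclasts and giant cells, 8 were tested and 4 were higher, among them Tfec (2.13), a transcription factor of the MITF family, Atp6v0d2 (2.43), a proton pump subunit, and Mmp12 (3.37), the macrophage elastase. In the comparison of COE with non-TRIM24 tumors, Ccr1 was 2.35 higher (limma adjusted p = 0.0203). Of these 15 lipid and lysosome genes 1 passed the threshold as higher, Ctsl, and 0 of the 9 osteoclast and giant cell genes tested did, against 1.7% of all genes. Of those 9 genes 5 had an unadjusted p under 0.05 in limma, against 24.3% of all genes. Of 6 monocyte genes, 2 were higher in COE tumors than in glands, Vcan and Fcgr4, by 3.43 and 1.59.

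Markers of other cells are given beside the shares of all genes tested between COE tumors and glands, 7.96% higher and 9.13% lower. Single calls in such short lists are not read as a change of a cell type. Of 6 T cell genes, 1 was lower in COE tumors than in glands, Cd3e, by 1.14, and of 4 B cell genes tested 3 were lower, with Cd79a lowest (-2.25). Of 8 adipocyte genes, 2 were lower, Fabp4 and Lipe, and of 4 endothelial genes 3 were lower, Tek, Kdr and Pecam1. Of 5 dendritic cell genes tested, 1 was lower, Zbtb46, and of 5 fibroblast genes 1 was higher, Col1a1. None of the epithelial, mast cell or skeletal muscle genes tested passed the threshold in limma. At an unadjusted p under 0.05, 2 epithelial genes, 0 mast cell genes and 0 muscle genes passed, against 32.6% of all genes. Their part in the results on macrophage genes was not tested beyond the adipocyte covariate. With the adipocyte mean in the fit, 18 of the 22 members called without it passed the threshold, Csf1r, Lilrb4a, Clec4d and Timd4 did not, and Mrc1 and Folr2 passed in addition (log2 fold changes 3.85 and 2.17, limma adjusted p = 0.0234 and 0.0373). In that fit 8.26% of all genes passed in either direction.

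**Figure D5:**
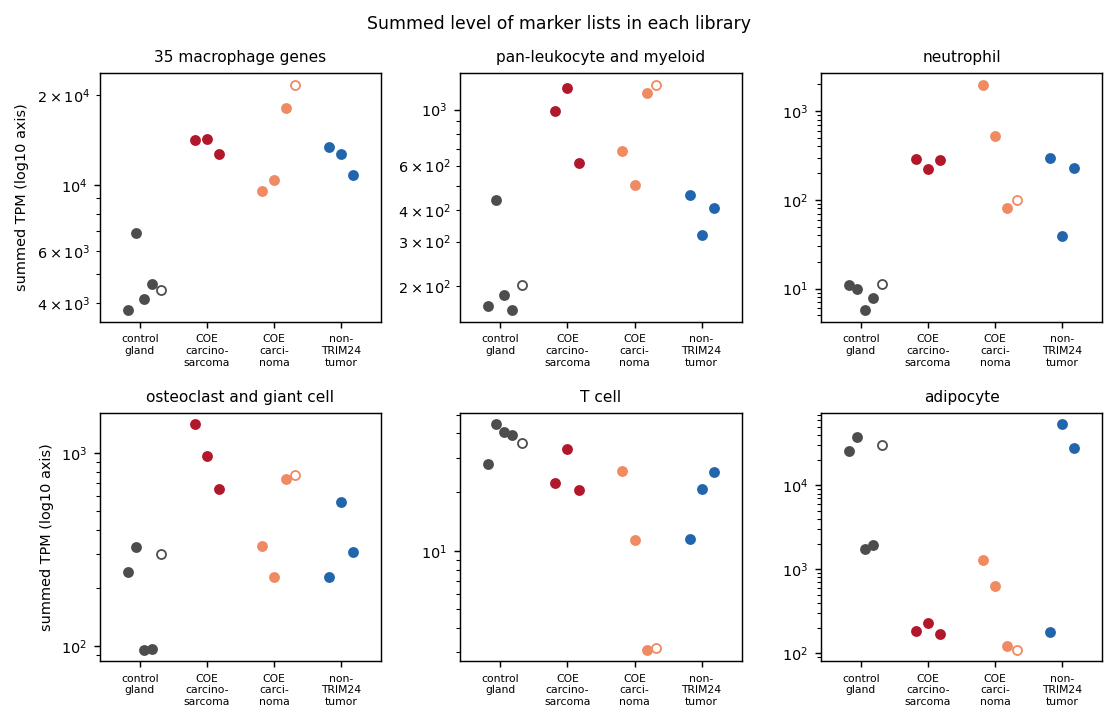
Summed TPM of the 35 macrophage genes and of 5 marker lists in each library on a log10 axis, by group; filled points are first libraries and open points repeat libraries. The neutrophil sum is at most 10.99 TPM in the glands and at least 81.1 TPM in the COE tumors, while the T cell sum is at most 33.2 TPM in the COE tumors and up to 44.8 TPM in the glands.

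Some members varied more across tumors than others. Over the 6 COE tumors the ratio of the highest to the lowest TPM + 1 had a median of 3.48 across members, from 1.62 for Adgre1 to 149 for Chil3. Ms4a6d, Npl, Tyrobp and Spp1 were among the evenest, at 1.94, 2.16, 2.18 and 2.28, and Clec4d and Clec4e among the most uneven, at 9.89 and 8.65. Over the 3 non-TRIM24 tumors the ratio ran from 1.07 for Npl to 17.0 for Arg1, and over the 4 glands from 1.14 for Timd4 to 19.1 for Mrc1.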

How the data were processed

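RNA-seq libraries of mouse mammary glands and tumors were analysed from the deposited tables, which hold TPM values. Per the methods of the study, the authors trimmed reads with Trimmomatic and estimated TPM with RSEM and the STAR aligner on GRCm38 with a GENCODE annotation, whereas the submitters' processing notes list TopHat, Cufflinks, RSEM and mm10. The labels name a TruSeq Stranded Total RNA kit and the methods another TruSeq kit. No replicates were pooled, and the TPM give no depth, so that precision rests on the spread between mice.

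Groups, tumor class and batch were taken from the labels, and 0 columns lacked a sample. The members and gene lists were chosen with earlier results of these data known. TPM were analysed as log2(TPM + 1), which understates changes of low genes, with limma 3.58.1 in R 4.3.3 (lmFit, eBayes with variance trend), two-sided, Benjamini-Hochberg over all genes tested, threshold 0.05. A gene was tested with at least 1 TPM in at least 4 libraries for COE tumors against control glands and in at least 3 otherwise. Comparisons within batch 1 used first libraries; those with non-TRIM24 tumors used all 15 libraries, a batch term and duplicateCorrelation on mouse. Where leaving out mouse 133 or 3956 made that correlation inestimable, the value from all libraries was used. Exact permutation tests used scipy 1.17.1 in Python 3.11.15. Nothing states that mice were independent litters, so that p-values measure the spread between these mice. Library values were given for Spp1, Msr1, the 2 members of each role with the smallest p in COE tumors against glands, and members past the threshold in another comparison; of the other lists up to 3 genes in each direction were named by adjusted p. A gene this rule would name is not reported here. Ccl2 was named outside this rule, as were further members where their values were seen to differ between libraries. Alternatives covered the pseudocount (0.1 TPM), the filter, quantile normalization, leukocyte and adipocyte covariates, repeats, batch, variance trend and leaving out each mouse; averaging glands 417_3 and 517_3 was added after seeing the data. The fits were tested on simulated data. Positions are from GENCODE M21 on GRCm38 and promoters from RefSeq.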

Additional observations from a re-analysis of the deposited data

Results flagged for a closer look

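Of 70 sets of values examined, the 35 genes in the 4 control glands and in the 6 COE tumors, 5 held a library whose distance to its nearest neighbour was large against the range of its group on the log2(TPM + 1) scale. Chance alone marks about 1 in 20 such sets, or 3.5 of 70. In 4 of the 5 the library was control gland 392, which was the highest gland for Csf1r with 33.1 TPM (15.5 to 17.6 TPM in the other glands), for Cd68 with 31.8 TPM (19.0 to 19.7 TPM), for Ms4a6d with 10.03 TPM (4.21 to 4.82 TPM) and for C1qb with 215 TPM (68.7 to 79.9 TPM). The summed level of the pan-leukocyte and myeloid genes was also highest in that gland, at 438 TPM. Without gland 392, 23 members passed the threshold between COE tumors and glands. The other set was Npl in the COE tumors, where tumor 89 had 23.4 TPM and the other 5 tumors 44.9 to 51.7 TPM.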

How the results depend on the processing

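Between COE tumors and control glands, 22 members passed the threshold, and between 20 and 23 did when 1 mouse was left out. Among the other 8 alternatives the leukocyte covariate left 3. Ms4a6d, Spp1 and Msr1 were past the threshold in each alternative run, with the leukocyte covariate only narrowly (highest limma adjusted p = 0.0489, for Msr1). In each fit without 1 mouse, 19 of the 22 passed, and Adgre1, Clec4d and Lilrb4a were the exceptions. Between carcinosarcomas and carcinomas the count was 0 in each alternative, and leaving out a mouse gave 0 to 0. The share of all genes passing in the same fit is given in parentheses. Between non-TRIM24 tumors and glands the count of 4 became 0 with no filter on low TPM (0.12%), 1 with the leukocyte covariate (0.316%), 0 with libraries treated as independent (0.107%) and 12 without a batch term (14.1%). Leaving out 1 mouse gave 0 to 7. Between COE and non-TRIM24 tumors the count of 6 became 1 with no filter (0.06%), 1 under quantile normalization (1.69%) and 0 with the leukocyte covariate (0.00596%). It became 0 with libraries treated as independent (0.0179%) and 10 without a batch term (18.4%), and leaving out 1 mouse gave 0 to 9. The cause of these changes was not tested. Of 2471 member values over all alternatives, 108 changed sign, in none of which the value was past the threshold before or after, 126 lost the threshold and 27 gained it. No paired analysis was possible because the groups share no replicate numbers. TPM hold no depth, so that the error of low values such as those of Timd4 and Marco cannot be given from them.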
